A study of Mus musculus with 6 samples.

Results

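Igf2bp1, Igf2bp2, Igf2bp3, Lin28a, Lin28b, Hmga1 and Hmga2 are genes that many embryonic tissues express, that most adult tissues express less, and that many tumours express again, for which they are often called oncofetal. They were taken by gene symbol from the deposited table, where they are 7 of 23367 entries, and the rule uses no measured value. The genes were, however, chosen with earlier results of these data known. Each symbol matched 1 entry. The table holds polyA RNA-seq of the gastrocnemius, the large calf muscle, of wild type FVB mice in 6 libraries from 5 stages: E18.5 (embryonic day 18.5), PN2, PN14 and PN28 (postnatal days 2, 14 and 28), and adult at 22 weeks. The E18.5 library came from pooled mice of both sexes, the PN2 library from pooled males, and the adult, PN28 and PN14 libraries each from 1 male. PN14 had 2 libraries, replicates 1 and 2, and each other stage had 1. No treatment or mutation was involved. E18.5 therefore differs from the later stages in sex as well as in age, and the effects of age and sex cannot be told apart there. Likewise, the E18.5 and PN2 libraries are pools and the later ones single mice. Age and pooling cannot be told apart from PN2 to PN14 or from E18.5 to adult.

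The IGF2BP proteins bind mRNAs through RRM and KH domains and act on their stability, localization and translation. Igf2 mRNA is the target that gave the family its name. LIN28A and LIN28B bind the precursors of the let-7 microRNAs and block their maturation, and mature let-7 in turn represses Lin28a, Lin28b, Hmga2 and Igf2bp1 through sites in their 3′ UTRs. HMGA1 and HMGA2 are AT-hook proteins that bind the minor groove of AT-rich DNA and alter chromatin structure, and in myoblasts HMGA2 is known to promote the transcription of Igf2bp2.

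The let-7 seed and the sites that pair with it are shown first because they are the sequence feature that these genes are known for. The mature microRNA is from RefSeq (GRCm38.p6), with the seed, bases 2 to 8, in capitals. Of 11 mature let-7 family names in that table, 10 had this seed.
mmu-let-7a-5p: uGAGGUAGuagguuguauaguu

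The longest 3′ UTR of each gene in GENCODE M1 (mm9) was searched on the sense strand for CTACCTC, the reverse complement of that seed. The first match in each 3′ UTR is printed below with its flanks, in capitals where it pairs with the seed. All 7 genes held at least 1 match.
Igf2bp1 (chr11:95823092-95823113, minus strand): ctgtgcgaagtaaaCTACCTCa
Igf2bp2 (chr16:22059546-22059567, minus strand): cacacaaataaaagCTACCTCa
Igf2bp3 (chr6:49036786-49036807, minus strand): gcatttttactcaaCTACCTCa
Lin28a (chr4:133561104-133561125, minus strand): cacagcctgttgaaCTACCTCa
Lin28b (chr10:45100828-45100849, minus strand): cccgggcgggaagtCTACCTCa
Hmga1 (chr17:27700223-27700244, plus strand): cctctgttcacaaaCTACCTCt
Hmga2 (chr10:119801280-119801301, minus strand): ccgacattcaatttCTACCTCa

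There were 17 matches in all. Igf2bp1, Lin28b and Hmga2 held 4 each, Lin28a held 2, and Igf2bp2, Igf2bp3 and Hmga1 held 1 each. Of the 19915 genes with an annotated 3′ UTR, 8.81% held at least 1 match. Long 3′ UTRs hold more matches, so each gene was also set beside the genes whose 3′ UTR was within 20% of its own length. The gene itself was counted among those, so the share could not be 0. For Igf2bp1, 0.278% of 360 genes held as many matches or more. The same share was 0.296% of 1014 for Lin28b, 0.153% of 1967 for Hmga2 and 2.4% of 2166 for Lin28a. For Igf2bp2, Igf2bp3 and Hmga1, with their single matches, it was 13.1%, 14.1% and 9.27%. The 4 matches of Igf2bp1 and of Lin28b lay in 3′ UTRs of 6337 and 4445 bases, and the first match of Hmga2 began 58 bases into a 3′ UTR of 3014 bases. A match is a description of the sequence and not a measured site.

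The libraries held 125402932 to 157868359 counts on genes. A count of 3, the most that a count of 0 allows, was 0.0131 to 0.0295 CPM (counts scaled to library size, here after the TMM normalization described next). These limits cover counting error only. The 20 genes with the most counts took 16.03% of the counts at E18.5 and 36.9% in the adult, so a count share or FPKM (fragments scaled to gene length and library size) of any other gene is lowered in the older libraries. TMM normalization, which was used for all tests, rescales for this. With library size alone the median log2 fold change of all tested genes was -0.66 from PN2 to PN14 and -1.08 from E18.5 to adult. It was -0.01 and -0.05 after TMM. The fold changes below are relative to that shift. Since PN14 alone has replicates, p-values rest on the spread between those 2 mice and assume that the other stages vary alike. With 1 residual degree of freedom and a prior of 4.86, edgeR drew the spread of a gene mostly from that pair's spread over all genes. In whole muscle, fewer cells of a type and less RNA per cell cannot be told apart.

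All 3 Igf2bp genes, both Lin28 genes and Hmga2 had their lowest levels after PN2, and the Igf2bp genes and Hmga2 fell between PN2 and PN14. A gene was called at a Benjamini-Hochberg adjusted p under 0.05 in edgeR's quasi-likelihood test, with at least a 2-fold change. From PN2 to PN14, 4 of the 7 genes were called, all as lower, where 23% of the 16882 tested genes were called in either direction and 11.2% as falling. Between E18.5 and adult 5 of 7 were called, all as lower, where 44.9% of tested genes were called and 23.6% as falling. Both counts include Hmga2, whose lower level holds for its own entry. Summed with the pseudogene entry Hmga2-ps1, described below, Hmga2 was not called from PN2 to PN14 and rose from E18.5 to adult. With library size alone, calls over all genes tilted to falling, with 4971 of 5825 against 1896 of 3884 after TMM from PN2 to PN14, and 7700 of 9047 against 3978 of 7584 from E18.5 to adult. All 7 genes passed the filter on low counts. Lin28b passed it through its E18.5 and PN2 libraries alone, so its lower level at later stages was built into its being tested. Igf2bp1 reached the filter's level in E18.5, PN2 and PN14 replicate 2 alone. Its low level at PN28 and in the adult could therefore not keep it out of the tests.

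**Figure D1:**
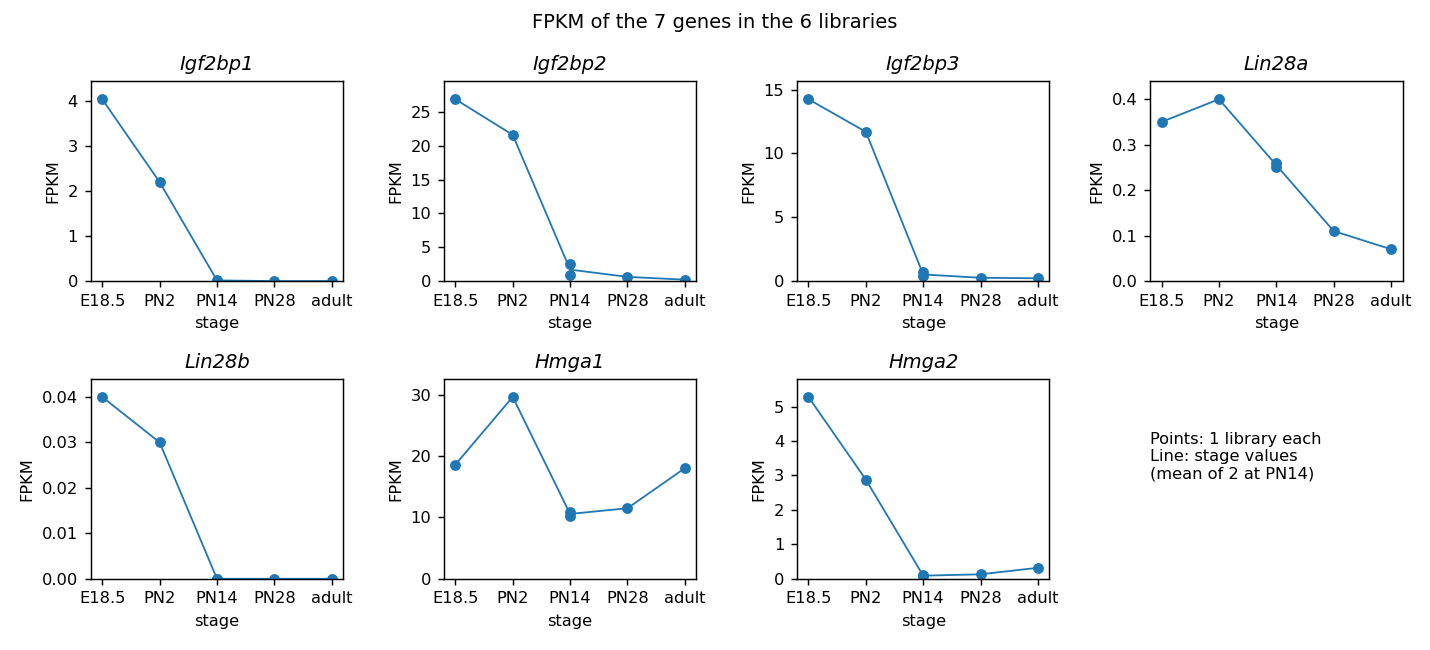
FPKM (linear axis, a scale of its own for each gene) of the 7 genes at each stage, with 1 point per library and a line through the stage values, which at PN14 is the mean of 2 libraries. The 3 Igf2bp genes and Hmga2 were near the bottom of their scale from PN14 on, whereas Hmga1 was 10.2 to 29.7 FPKM throughout.

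The Igf2bp family was led by Igf2bp2 in 5 of the 6 libraries. Igf2bp2 (chr16:22059082-22163372, minus strand, mm9), the paralog that is best known for its expression in adult tissues and in muscle progenitors, was at 26.90 FPKM at E18.5, 21.63 at PN2, 0.88 and 2.51 at PN14 and 0.62 at PN28, with 0.21 in the adult. The E18.5 and PN2 libraries were far above the 4 later ones. The PN14 mean was 1.70 ± 1.15 FPKM (SD, n = 2), with replicate 2 the higher. The fold change from PN2 to PN14 was -3.07 on the log2 scale (SE 0.448, edgeR adjusted p = 0.0084). Taken without a test from log2(CPM + 0.1), it was -3.06 with both PN14 libraries, -2.57 without replicate 1 and -3.80 without replicate 2. From E18.5 to adult it was -5.94 (SE 0.674, edgeR adjusted p = 0.00184).

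Igf2bp3 (chr6:49035220-49164953, minus strand), a paralog that is largely restricted to embryos and tumours, was at 14.24 FPKM at E18.5 and 11.69 at PN2. It was at 0.36 and 0.68 at PN14 and 0.26 at PN28, with 0.22 in the adult. Both early libraries were again above all later ones, and the PN14 mean was 0.52 ± 0.226 (SD, n = 2). It fell by 3.86 on the log2 scale from PN2 to PN14 (SE 0.282, edgeR adjusted p = 0.00301) and by 4.96 from E18.5 to adult (SE 0.394, edgeR adjusted p = 0.00123).

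Igf2bp1 (chr11:95818477-95867254, minus strand), which protects Myc and other mRNAs from decay, was the lowest of the 3 in FPKM and had the largest fold change of the 7 genes. It had 5323 counts at E18.5 and 2879 at PN2, then 7 and 28 at PN14 and 2 at PN28, with 1 in the adult. In FPKM this was 4.04, 2.20, 0.01, 0.02, 0.00 and 0.00. The fold change from PN2 to PN14 was -6.57 (SE 0.451, edgeR adjusted p = 0.00301), and 0.243% of tested genes had a larger fall in this interval. Igf2bp1 was also called from E18.5 to adult (edgeR adjusted p = 0.00123). With a single count in the adult, the ratio of E18.5 to adult was 2360, with a 95% counting interval of 424 to 93400.

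Summed over the family, Igf2bp FPKM was 45.2 at E18.5 and 35.5 at PN2, 1.25 and 3.21 at PN14 and 0.88 at PN28, with 0.43 in the adult. The share of Igf2bp2 in that sum was 59.5% at E18.5, 60.9% at PN2, 70.4% and 78.2% at PN14 and 70.5% at PN28. In the adult it was 48.8%, next to 51.2% for Igf2bp3. Igf2bp1 made up 8.94% at E18.5, 6.19% at PN2 and under 1% in each later library. The adult order of Igf2bp3 before Igf2bp2 rests on FPKM of 0.22 and 0.21 and was not tested.

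**Figure D2:**
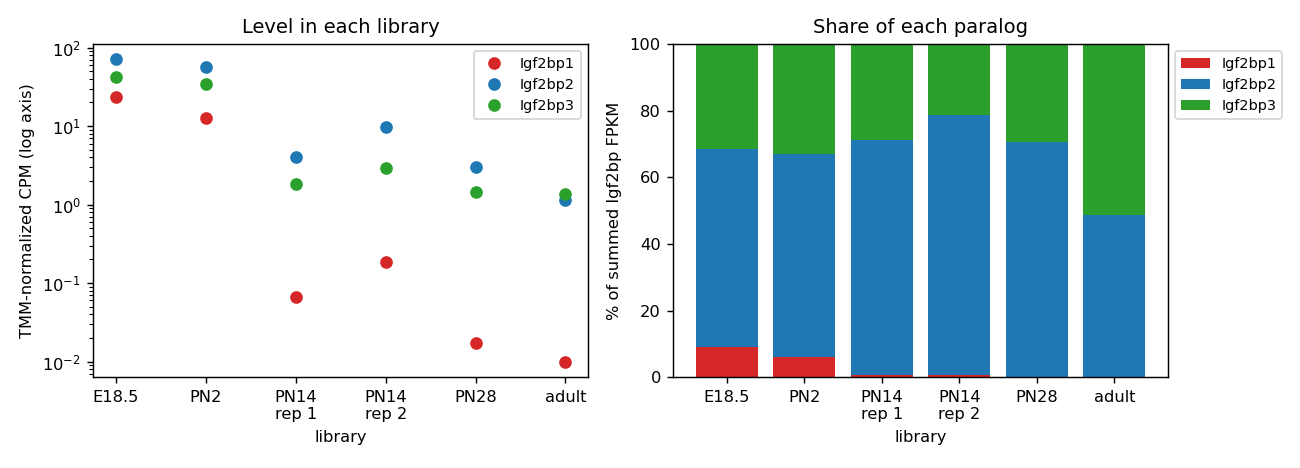
Left, TMM-normalized CPM (log axis) of Igf2bp1, Igf2bp2 and Igf2bp3 in each of the 6 libraries. Right, the percentage that each paralog makes up of the summed Igf2bp FPKM of a library. Igf2bp2 and Igf2bp3 lay between 1 and 10 CPM from PN14 on, while Igf2bp1 was under 0.2 CPM.

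The PN14 libraries differed from each other in these 3 genes. In TMM-normalized CPM, replicate 2 was 2.79 times replicate 1 for Igf2bp1, 2.38 times for Igf2bp2 and 1.57 times for Igf2bp3. The ratio was 1.35 for Hmga2, 0.898 for Hmga1 and 0.85 for Lin28a. The median over all tested genes was near 1 (1.01), and 1.77% of them were over 2-fold higher in replicate 2. The summed FPKM of 13 proliferation genes was 48.1 in replicate 1 and 88.0 in replicate 2, and that of 6 Schwann cell genes was 322 and 1179. The part of these differences in the Igf2bp values at PN14 was not tested.

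Hmga2 (chr10:119798331-119913525, minus strand) stood at 5.28 FPKM at E18.5 and 2.88 at PN2. It was at 0.07 and 0.11 at PN14 and 0.13 at PN28, with 0.32 in the adult. The lowest values were thus those of PN14 (0.09 ± 0.0283, SD, n = 2), and the adult library was above both PN14 libraries and PN28 but below E18.5 and PN2. The gene fell by 4.42 on the log2 scale from PN2 to PN14 (SE 0.295, edgeR adjusted p = 0.00301) and by 3.0 from E18.5 to adult (SE 0.353, edgeR adjusted p = 0.00196). Its log2 difference from PN28 to adult was 1.45 (SE 0.356) and did not pass the test (edgeR adjusted p = 0.125), although edgeR's exact test called it (adjusted p = 0.0324).

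Hmga1 (chr17:27693565-27700619, plus strand) is the paralog with the wider expression in dividing cells. By the entries as deposited, it was the most abundant of the 7 genes in FPKM in each library other than E18.5. Igf2bp2 was higher at E18.5. Close matches of the Hmga1 and Hmga2 transcripts elsewhere in the genome are described below. Hmga1 was at 18.61 FPKM at E18.5, 29.67 at PN2, 10.22 and 10.94 at PN14 and 11.51 at PN28, with 18.05 in the adult. PN2 was the highest library and the PN14 libraries the lowest, at 10.6 ± 0.509 (SD, n = 2). From PN2 to PN14 its log2 fold change was -0.84 (SE 0.169, edgeR adjusted p = 0.0182), short of 2-fold. With library size alone it was -1.49, which was called. From E18.5 to adult it was 0.97 (SE 0.202, edgeR adjusted p = 0.00994), also short of 2-fold, and with library size alone it was -0.055 (edgeR adjusted p = 0.917). The direction of Hmga1 over the whole series therefore depends on the scaling. After TMM the adult library was the highest at 41.8 CPM, followed by PN2 at 34.2, PN28 at 24.3, E18.5 at 21.4 and PN14 at 19.2 ± 1.46 (SD, n = 2).

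The levels of the 2 entries moved apart. Hmga1 FPKM was 3.52 times that of Hmga2 at E18.5 and 10.3 times at PN2. It was 146 and 99.5 times at PN14 and 88.5 times at PN28, with 56.4 times in the adult. Hmga2 made up 22.1% of their summed FPKM at E18.5 and 0.68% to 1.74% from PN14 on. This rests on the Hmga1 and Hmga2 entries as deposited. With Hmga2-ps1, described next, counted into Hmga2, the share was 35.7% at E18.5, 19.8% at PN2, 40.9% and 32.8% at PN14 and 47.7% at PN28, with 71.1% in the adult.

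The transcripts of Hmga1 and Hmga2 have close matches elsewhere in the genome, so the values of both genes are uncertain. That of Hmga1 was the closer, over 1602 of its 1635 bases at 99.81% identity, and its part in the Hmga1 values was not tested. The Hmga2 transcript matched chr1:178765657-178769203 at 93.11% identity, and RefSeq places Hmga2-ps1, a transcribed pseudogene, on chromosome 1 of GRCm38. Whether the Hmga2-ps1 entry of the table lies at that match was not established. The Hmga2-ps1 entry was at 5.05 FPKM at E18.5, 4.46 at PN2, 7.01 and 5.22 at PN14 and 10.35 at PN28, with 44.18 in the adult, which was the highest library by far. It rose by 1.14 on the log2 scale from PN2 to PN14 (SE 0.311, edgeR adjusted p = 0.04) and by 4.15 from E18.5 to adult (SE 0.383, edgeR adjusted p = 0.00131), where Hmga2 was lower. With library size alone these were 0.46, which was not called, and 3.13. In the other 3 intervals the differences of both entries had the same sign. There were 48.1 Hmga2-ps1 counts for each Hmga2 count in the adult and 0.338 at E18.5. With both summed, an alternative chosen after seeing the data, the change from PN2 to PN14 was -0.31 (edgeR adjusted p = 0.425) and was no longer called, and the change from E18.5 to adult turned to 2.20 (edgeR adjusted p = 0.00369). The lower level of Hmga2 at later stages thus holds for its own entry and not for the sum of both. No match outside their own loci was found for Igf2bp1, Igf2bp2, Igf2bp3 and Lin28b, and for Lin28a only partial ones.

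**Figure D3:**
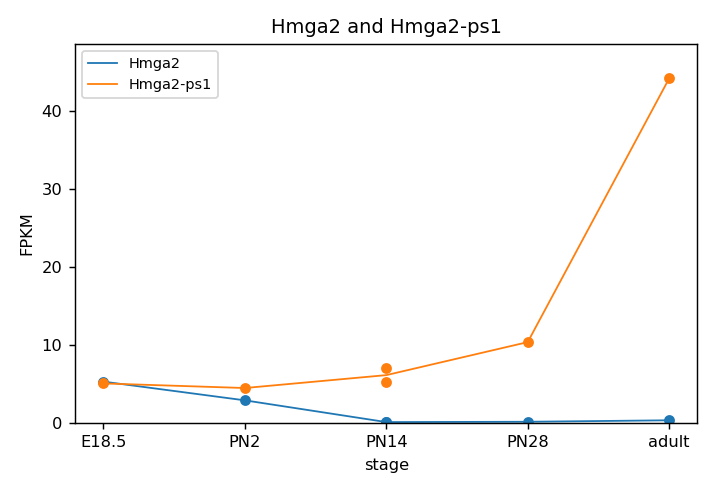
FPKM (linear axis) at each stage of Hmga2 and Hmga2-ps1, with 1 point per library and a line through the stage values, which at PN14 is the mean of 2 libraries. Hmga2-ps1 reached 44.2 FPKM in the adult, where Hmga2 was at 0.32.

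Both Lin28 genes were low at all stages, and Lin28b was close to the floor of 3 counts. Lin28a (chr4:133559245-133574756, minus strand) had 192 counts at E18.5, 214 at PN2, 109 and 133 at PN14 and 54 at PN28, with 36 in the adult. In FPKM this was 0.35, 0.40, 0.25, 0.26, 0.11 and 0.07. Its TMM-normalized level was as high at PN14 (0.956 ± 0.109 CPM, SD, n = 2) as at PN2 (0.941 CPM), and the log2 difference of 0.02 (SE 0.379) from PN2 to PN14 was within its error. Without PN14 replicate 1 it was -0.088, with no test. With library size alone that difference was -0.64, and it was not called either. PN28 and the adult were lower, at 0.463 and 0.354 CPM. The log2 difference from E18.5 to adult was -1.24 (SE 0.47) and missed the threshold (edgeR adjusted p = 0.0672). It passed with library size alone, at -2.27, and in edgeR's exact test (adjusted p = 0.0388).

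Lin28b (chr10:45096426-45206201, minus strand) had 37 counts at E18.5 and 22 at PN2, 2 in each PN14 library, and 0 at PN28 and in the adult. A count of 0 allows up to 0.0257 TMM-normalized CPM at PN28 and 0.0295 in the adult. The ratio of PN2 to PN14 was 6.21, with a 95% counting interval of 2.11 to 24.8, and the gene was not called there (edgeR adjusted p = 0.0586). The exact test (adjusted p = 0.00845) and library size alone (edgeR adjusted p = 0.00427) called it. It was called from E18.5 to adult (edgeR adjusted p = 0.0151). With the adult set at that floor, its level was 5.48-fold lower there, or 11.1-fold with library size alone. Both ratios take the 37 counts at E18.5 as exact and carry no interval. Lin28a made up 89.7% of the summed Lin28 FPKM at E18.5 and 93.0% at PN2.

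**Figure D4:**
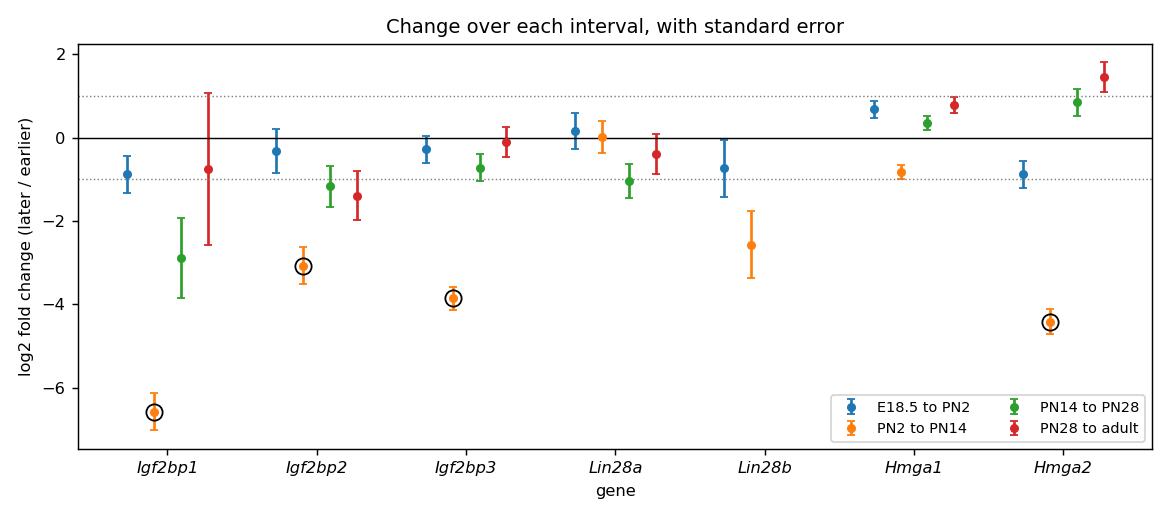
Log2 fold change of each gene over the 4 intervals, with bars of 1 standard error from edgeR's quasi-likelihood fit, black rings on called changes and dotted lines at 2-fold. The called changes were those of Igf2bp1, Igf2bp2, Igf2bp3 and Hmga2 from PN2 to PN14, and Lin28b is left out of the last 2 intervals, in which its libraries held 0 to 2 counts. Values of Hmga2 are those of its own entry, without Hmga2-ps1.

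Between consecutive stages, PN2 to PN14 was the interval in which genes of the 7 were called. From E18.5 to PN2 edgeR's quasi-likelihood test called 0 of 7, where 0.0296% of all tested genes were called. At an unadjusted p under 0.05 there were 2, Hmga1 with a log2 difference of 0.68 (SE 0.201) and Hmga2 with -0.87 (SE 0.325), and no other tool called any. The differences of the Igf2bp genes in this interval were -0.88, -0.31 and -0.28, each within 2 SE of 0. From PN14 to PN28 again 0 of 7 were called, where 0.0178% of tested genes were, with 3 at an unadjusted p under 0.05 (Igf2bp1, Lin28a and Hmga2). DESeq2 and edgeR's exact test also called 0 there, and library size alone called Igf2bp2. From PN28 to adult 0 of 7 were called, where 0.521% were, with 2 at an unadjusted p under 0.05 (Hmga1 and Hmga2). DESeq2 called 0 in this interval, the exact test called Hmga2 and library size alone called Igf2bp2. A call in 1 interval and not in another does not show that the changes differ, and that difference was not tested.

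**Figure D5:**
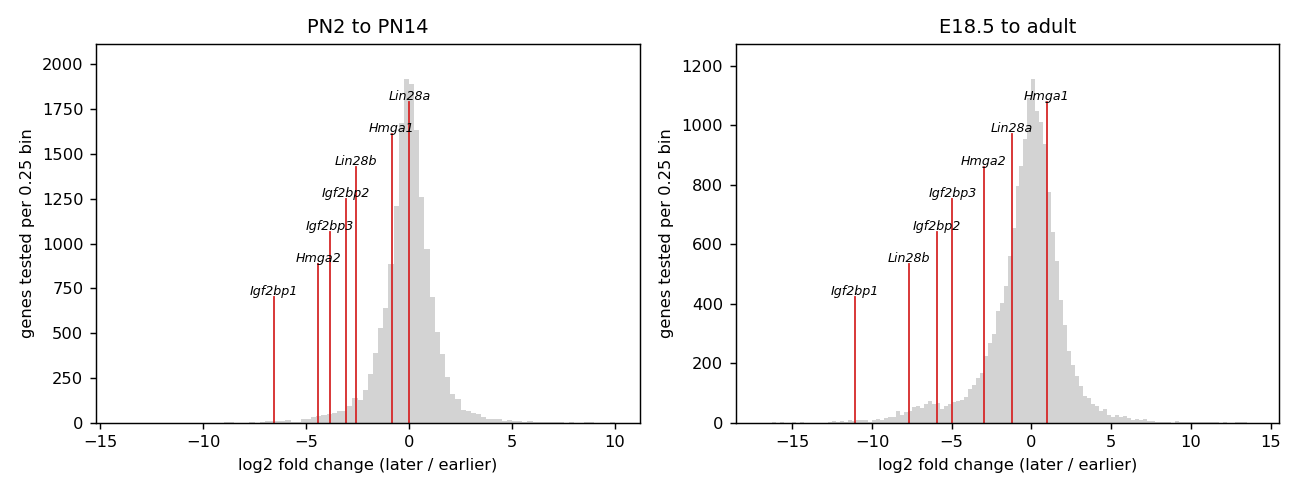
Histograms of the log2 fold change of all 16882 tested genes from PN2 to PN14, left, and from E18.5 to adult, right, in bins of 0.25, with red lines at the 7 genes. Igf2bp1, Hmga2, Igf2bp3 and Igf2bp2 lay in the left tail from PN2 to PN14, and Lin28a and Hmga1 lay within the bulk of genes. The lines for Hmga2 are those of its own entry, without Hmga2-ps1.

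Among all tested genes from PN2 to PN14, 1.06% fell further than Hmga2, 1.62% further than Igf2bp3 and 2.71% further than Igf2bp2. Between E18.5 and adult 0.166% fell further than Igf2bp1, 3.87% further than Igf2bp2, 5.29% further than Igf2bp3 and 10.3% further than Hmga2. By FPKM, Igf2bp2 was above 88.9% of all entries at E18.5 and above 45.4% in the adult, and Igf2bp3 was above 80.0% and 45.6%. Hmga1 was above 80.2% to 89.8% of entries in all 6 libraries.

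The profiles nearest to each gene over the 6 libraries were found by the root mean square difference in log2(CPM + 0.1), centred on each gene. For Igf2bp1 these were Tmem72 at 0.343, Trpm5 at 0.441 and Peg10, an imprinted retrotransposon-derived gene, at 0.488. For Igf2bp2 they were Klf14 at 0.195, C430049B03Rik at 0.211 and Myo16 at 0.23, and for Igf2bp3 Epha5 at 0.188, Scn3b at 0.199 and Nr1h5 at 0.213. Hmga2 was nearest to Smoc1 at 0.465 and to the mast cell protease genes Cpa3 at 0.471 and Tpsb2 at 0.514. Hmga1 was nearest to Dntt, Lrba and Tbc1d4, at 0.12 to 0.133. Dntt was at most 0.1 FPKM in any library, and Epha5 at most 0.84. With a pseudocount of 1 CPM or with library size alone, Dntt was not among the 3 nearest to Hmga1. Of the 15 nearest profiles, 4 were kept with a pseudocount of 1 CPM and 11 with library size alone. The 4 were Trpm5, Smoc1, Lrba and Tbc1d4, so Peg10, Cpa3 and Tpsb2 were not kept with that pseudocount. Igf2bp2 and Igf2bp3 differed from each other by 0.569, and 76 genes were nearer to Igf2bp2 than Igf2bp3 was. These likenesses cover 6 libraries of different age and composition and carry no test.

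In the gene lists that follow, fell and rose mean called, and their counts stand beside those over all 16882 tested genes. From PN2 to PN14, 11.2% of these fell and 1988 rose, and from E18.5 to adult 23.6% fell and 3606 rose. With library size alone, 4971 fell and 854 rose from PN2 to PN14, and 7700 fell and 1347 rose from E18.5 to adult. The mRNAs known to be bound by IGF2BP proteins were followed in a list of 15. From PN2 to PN14, 4 fell and 1 rose, and from E18.5 to adult 9 fell and 1 rose, with a median log2 fold change of -1.77 in the latter beside -0.05 over all tested genes. Library size alone gave 11 that fell and 1 that rose in both comparisons. Igf2, the fetal growth factor, was at 2434 FPKM at E18.5, 2489 at PN2, 115 and 497 at PN14 and 27.4 at PN28, with 3.79 in the adult. Its log2 fold change from E18.5 to adult was -8.31 (SE 1.35, edgeR adjusted p = 0.00442), and from PN2 to PN14 it was -2.45 and not called (edgeR adjusted p = 0.0668). H19, the imprinted noncoding RNA next to Igf2, was at 7578 and 8279 FPKM in the early libraries and at 60.4 in the adult, with a log2 fold change from E18.5 to adult of -5.94 (SE 1.2, edgeR adjusted p = 0.0089). Ccng1, a cyclin that p53 induces, rose by 2.48 from E18.5 to adult (SE 0.468, edgeR adjusted p = 0.0071).

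The known let-7 targets outside the 7 genes, 19 of them, held 4 that fell and 0 that rose from PN2 to PN14. From E18.5 to adult 8 fell and 2 rose. Over all tested genes, 11.2% fell in the former comparison and 23.6% in the latter. Cdk6, a G1 cyclin-dependent kinase, fell by 2.69 (SE 0.462, edgeR adjusted p = 0.00523) from E18.5 to adult. Nr6a1, an orphan nuclear receptor of the germ line, rose by 2.00 (SE 0.344, edgeR adjusted p = 0.00528) and Cdc34, a ubiquitin-conjugating enzyme, by 1.53 (SE 0.305, edgeR adjusted p = 0.00835), but with library size alone no gene of the list rose and 14 fell in both comparisons. The median of the list from E18.5 to adult was -0.74, beside -0.05 over all tested genes. The let-7 microRNAs themselves were not measured, since 11 let-7 hairpin entries in the table held 1 count in all.

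The share of tested genes outside the 7 that fell was also counted by the number of let-7 seed matches in the 3′ UTR. From PN2 to PN14 it was 11.4% of 13412 genes with no match, 12.9% of 1322 with 1, 13.0% of 161 with 2 and 9.52% of 21 with at least 3. Of 9 tested genes with 4 or more matches, 3 were Hmga2, Igf2bp1 and Lin28b. The other 6 (Hic2, Mcf2l, Nr6a1, Nudt12, Ptafr and Trim6) had log2 fold changes of -0.76 to 0.97 in that interval and none was called there. From E18.5 to adult Mcf2l fell by 1.22, and Nr6a1 and Nudt12 rose by 2.00 and 2.29, and the other 3 were not called.

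The 14 genes of microRNA processing and let-7 control held 1 that fell from PN2 to PN14, where 11.2% of all tested genes fell. From E18.5 to adult 2 fell and 2 rose, where 23.6% of all tested genes fell. Their median from E18.5 to adult was -0.03, beside -0.05 over all tested genes. Ago2, the Argonaute with slicer activity, was at 42.7 and 35.3 FPKM in the early libraries and at 6.56 to 8.19 from PN14 on. Ago2 fell by 1.71 from PN2 to PN14 (edgeR adjusted p = 0.00572). Prkra, a Dicer cofactor, fell by 1.84 from E18.5 to adult (SE 0.247, edgeR adjusted p = 0.00258) and Ago2 fell by 1.49 (SE 0.245, edgeR adjusted p = 0.0046). Ago4 rose by 2.12 (SE 0.371, edgeR adjusted p = 0.00556) and Dicer1 by 1.16 (SE 0.259, edgeR adjusted p = 0.0126), and neither was called with library size alone, where 5 of the 14 fell from PN2 to PN14 and 7 from E18.5 to adult.

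Of 10 other HMG-box and HMGN chromatin genes, 9 were tested. From PN2 to PN14, 2 fell, where 11.2% of all tested genes did. From E18.5 to adult 5 fell and 0 rose, where 23.6% of all tested genes fell. The median from E18.5 to adult was -1.80, beside -0.05 over all tested genes. Library size alone gave 6 and 7 that fell. Hmgb2 went from 55.1 FPKM at E18.5 to 1.66 in the adult, a log2 fold change of -4.03 (SE 0.489, edgeR adjusted p = 0.0021), and Hmgn2 from 298 to 29.2, a change of -2.33 (SE 0.337, edgeR adjusted p = 0.00313). Of 8 other oncofetal genes, 6 were tested, and 5 of them fell and 1 rose in both comparisons. Dlk1, an imprinted Notch-ligand-like gene, was at 746 FPKM at E18.5 and 0.22 in the adult, with a log2 fold change of -10.73 (SE 1.12, edgeR adjusted p = 0.00158). Peg10 went from 149 to 0.22, a change of -8.36 (SE 0.762, edgeR adjusted p = 0.0013). Sall4, a zinc-finger factor of stem cells, went the other way, from 0.02 to 0.47 FPKM, a change of 5.67 (SE 0.611, edgeR adjusted p = 0.00168).

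Marker genes of other cell types were followed in the same way, and the lists differed in their calls. Over all tested genes, 11.2% fell from PN2 to PN14 and 23.6% from E18.5 to adult. The summed FPKM of 13 proliferation genes was 363 at E18.5, 267 at PN2, 48.1 and 88.0 at PN14 and 50.0 at PN28, with 18.5 in the adult, and 12 of them fell from PN2 to PN14. That of 7 satellite cell and myoblast genes went from 145 at E18.5 to 24.3 in the adult, with 3 that fell from PN2 to PN14 and 5 from E18.5 to adult. Cartilage and bone genes went from 117 to 0.61, with 7 of 9 that fell from PN2 to PN14 and 8 from E18.5 to adult. The 7 fibroblast genes had 0 called from PN2 to PN14 after TMM, 5 that fell with library size alone, and 5 that fell from E18.5 to adult after TMM, when their sum went from 6196 to 544. Skeletal myofibre genes, the markers of the labelled tissue, were summed to 32760 at E18.5 and 103700 to 134500 from PN14 on. Of 8, 2 were called as rising from PN2 to PN14 and 3 from E18.5 to adult, against 7 and 6 with library size alone. Their median log2 fold changes were 2.555 and 3.166 after TMM. Genes not called could have large errors, such as Myh4 with 7.09 (SE 2.58) from PN2 to PN14. The part of these cell types in the lower levels of the Igf2bp genes, Lin28b and Hmga2 was not tested.

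After TMM, from E18.5 to adult, erythroid genes fell for 6 of 7 tested, keratinocyte genes fell for 4 and rose for 1 of 5, and macrophage genes fell for 2 and rose for 1 of 6. Adipocyte genes rose for 5 of 6, Schwann cell genes rose for 2 of 6, and no endothelial gene of 7 was called. Under library size alone 5 endothelial, 4 macrophage and 2 Schwann cell genes fell, beside 2 Schwann cell genes that rose. After TMM, from PN2 to PN14, 1 erythroid and 2 keratinocyte genes fell, 2 adipocyte genes rose and 2 fell, 2 endothelial genes rose, and 0 macrophage and 0 Schwann cell genes were called. Under library size alone 0 endothelial genes rose, and 2 macrophage, 2 Schwann cell, 3 erythroid and 3 keratinocyte genes fell. In each list the summed FPKM stayed above 0.6 in each library. Genes at or under 3 counts in all libraries were Hmgb4, Afp and Cldn6 of the pathway lists and Hbb-bh1 and Dsg3 of the marker lists.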

How the data were processed

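RNA of 6 libraries was sequenced as paired reads on an Illumina HiSeq instrument after polyA selection. Alignment by the authors used TopHat2 2.0.5 on mm9, and RSEM (version not given in the sources used here) gave fragments per RefSeq gene. The deposited expected counts are not normalized. The FPKM values deposited by the authors beside them come from RSEM, scaled to gene length and library total, to 2 decimals. Strand handling in counting was not given in the sources used here.

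Expected counts were rounded and tested in R 4.3.3 with edgeR 4.0.16 (TMM, filterByExpr with a minimum count of 10 by stage, 16882 of 23367 entries kept, quasi-likelihood test, all 6 libraries in 1 fit with 5 stages, 1 residual degree of freedom, common biological coefficient of variation 0.188). A call needed a Benjamini-Hochberg adjusted p under 0.05 over all tested genes and a 2-fold change (log2 of 1) in either direction. The standard error is the absolute log2 fold change over the square root of F. Alternatives were library size alone, DESeq2 1.42.0 (its size factors, its Wald test), edgeR's exact test, no filter, a mean of at least 1 CPM, and leaving out each PN14 replicate. The code was tested on simulated data. Ratios with few counts carry exact binomial 95% intervals, other than those against a count of 0. Member transcripts were aligned to mm9 with minimap2 2.31, and tables were made in Python 3.11.15 with pandas 2.3.3.

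The genes and the 16 gene lists were chosen with earlier results of these data known. Of the lists' genes, Hras was not found in the table. The text names all 7 genes, the 3 nearest profiles of each one with at least 1 FPKM in a library, and of each pathway list the called genes with the 2 largest falls and rises, with Igf2 and H19. Some genes that this rule or a close match in sequence would bring in are not reported here.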

Additional observations from a re-analysis of the deposited data

How the results depend on the processing

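Across the alternatives, the calls of Igf2bp1, Igf2bp2 and Igf2bp3 from PN2 to PN14 and from E18.5 to adult held under each one run. Of 200 alternative values of single genes, 188 kept direction and call, 8 became called, 1 lost its call and 3 reversed, not counting the values without a PN14 replicate, which have no test. Among those, Lin28a from PN2 to PN14 went from 0.021 to -0.088 without replicate 1. With library size alone, Lin28a from PN2 to PN14 turned to -0.64 and Hmga1 from E18.5 to adult to -0.055 on the log2 scale. That setting also called 1 of the 7 genes between PN14 and PN28 and 1 between PN28 and adult (Igf2bp2 in both). Under it, the lists other than skeletal myofibre had 209 calls over 3 comparisons in place of 137. A gene of 2 lists counted in each. The exact test called 1 gene, Hmga2, from PN28 to adult. Summing Hmga2 with Hmga2-ps1, chosen after seeing the data, turned its change from E18.5 to adult to 2.20. In DESeq2's Wald test Lin28b has no adjusted p, and with a mean of at least 1 CPM Lin28a and Lin28b were not tested. Without a test, the genes at least 2-fold apart were 4 with and without either PN14 replicate for the interval of PN2 to PN14, and for PN14 to PN28 they were 1 with both replicates and between 1 and 2 without one (2 without replicate 1). With a pseudocount of 1 CPM, 4 of the 15 nearest profiles were shared. Over all genes, the calls from E18.5 to PN2 were 5 in the reported fit and 4 to 346 under the alternatives. Those for PN14 to PN28 were 3, and 3 to 262, and those for PN28 to adult were 88, and 13 (mean of at least 1 CPM) to 1146 (exact test). No paired analysis was possible because the labels number replicates at PN14 alone, so no number is shared between stages. With 1 library at most stages, the spread there is unknown, and 37 or fewer counts limit Lin28b.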
